A study of Homo sapiens with 2 samples.

Results

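The genes described here encode the enzymes that build cholesterol, the factors that sense it and the proteins that move it through the cell or limit its uptake. They were taken as a list of 27 gene symbols of this pathway, chosen by function, with earlier results of these data known. Each symbol matched 1 of the 50868 genes in the deposited table. RNA sequencing was done on 2 cultures labelled HepG2, a human liver cancer line. The parental culture was labelled WT and left untreated. The resistant culture was selected in sorafenib, a kinase inhibitor used against liver cancer, from 2.5 µM upward in steps of 0.5 µM to 7 µM. Both were grown in medium with fetal bovine serum, itself a source of cholesterol, and the labels do not say whether the resistant culture is a single clone or held the drug at harvest.

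Cells make cholesterol from acetyl-CoA through mevalonate, farnesyl diphosphate, squalene and lanosterol. When membranes of the endoplasmic reticulum lose cholesterol, SCAP escorts the SREBP transcription factors to the Golgi, where they are cut and released to raise the genes of synthesis and uptake. When sterols are plentiful, INSIG proteins hold SCAP back, and oxysterols activate the LXR receptors, which raise genes of efflux and MYLIP, a ubiquitin ligase that has lipoprotein receptors degraded. The liver is the main organ of this balance, and lines of liver origin are common models of it.

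Each group had 1 library, so no value has an SD, no test of the conditions was possible, and every interval below covers counting error only, given at 95%. The parental library held 18067146 counts and the resistant library 16811907. The markers of the labelled line go against the label. Of 10 genes chosen as hepatocyte markers, 8 had a count of 0 in both libraries, among them ALB, AFP, TTR, SERPINA1 and FOXA2, HNF4A had 2 counts in each, and the list summed to 2 parental and 4 resistant counts. With a count of 0, up to 0.166 parental or 0.179 resistant CPM could have been missed (3 counts), CPM being the count scaled to library depth. The fibroblast list had 5 of 7 genes at 1 CPM or more, with summed counts of 7195 and 6761, a CPM ratio of 1.02 (0.982 to 1.05). In this list COL1A2 and PDGFRA had 0 counts. Of the 5 measured genes 4 had a positive log2 ratio, with LUM going from 93 to 216 counts, whereas COL3A1 went from 3941 to 3267. The endothelial list summed to 33 parental and 79 resistant counts, most of them from CDH5 with 20 and 72. Its other genes did not rise, with 8 and 7 counts for PECAM1, 5 and 0 for VWF and 0 in both libraries for KDR. The leukocyte list summed to 7 and 5. The names parental and resistant therefore stand for the libraries so labelled, and the part of cell makeup in any difference was not tested. In bulk RNA, fewer cells that make a transcript and less of it per cell cannot be told apart.

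Most enzymes of cholesterol synthesis had slightly higher counts per depth in the resistant library, while SC5D was much lower. The 18 enzymes together went from 976 parental to 1085 resistant CPM, a ratio of 1.11 (1.09 to 1.13), and 15 of them had a positive log2 ratio. For 5 of the 17 other than SC5D (MVK, SQLE, TM7SF2, NSDHL and EBP) the interval of the ratio held 1, and SQLE and EBP lay below 1. SC5D was 2.39-fold lower (2.13 to 2.69). Of the 9 regulators and transport genes, SREBF1 was 1.52-fold lower (1.44 to 1.60) and MYLIP 2.10-fold lower (1.71 to 2.60), and the others lay between 0.912-fold and 1.12-fold. All 27 genes reached 1 CPM in at least 1 library and so counted as measured.

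**Figure D1:**
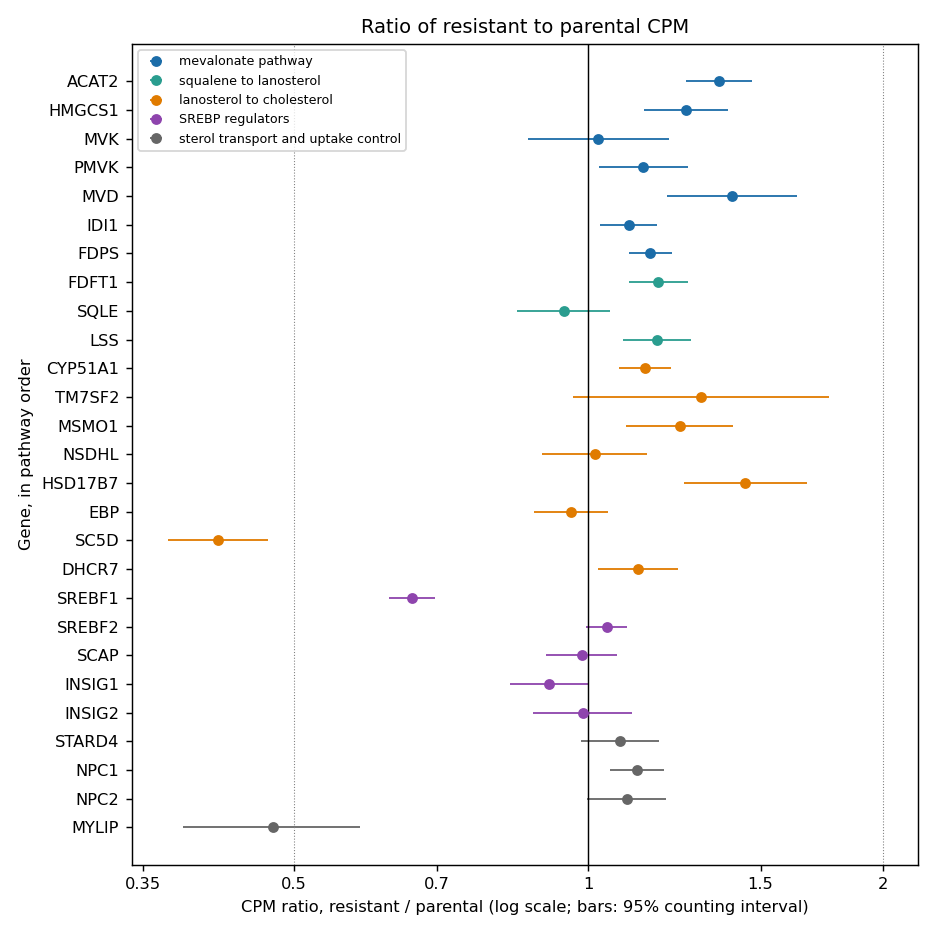
Ratio of resistant to parental CPM for each of the 27 genes, in pathway order from top to bottom, on a log axis, with 1 point per gene, bars for the 95% counting interval and colours for the role. Most enzymes sit slightly to the right of 1, while SC5D at 0.418, MYLIP at 0.475 and SREBF1 at 0.659 sit well to the left.

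Counted by size, 19 of the 27 genes had a positive log2 ratio, the log2 of resistant over parental CPM with 1 CPM added to each. Among the 14686 measured genes of the libraries 49.7% did. The median of the 27 was 0.13, against -0.0018 over all measured genes, and their mean was 0.04. A log2 ratio of at least 1 was reached by none of the 27, where 1.31% of measured genes reached it, and a log2 ratio of -1 or less by 1 gene, SC5D, where 0.994% did. MYLIP, at -0.99, lay just short of that limit. A smaller limit was a CPM ratio at least 25% above 1, or at least 20% below it, the same fold in both directions. Past it, 5 genes were higher (ACAT2, HMGCS1, MVD, TM7SF2 and HSD17B7) and 3 lower (SC5D, SREBF1 and MYLIP), against 15.2% and 13.4% of measured genes. HMGCS1, at a ratio of 1.26, was the nearest to the limit, and with DESeq2 size factors, or totals without mitochondrial genes, 4 genes were higher. Among the 10361 genes within the CPM range of the 27, the shares past this limit were 10.7% higher and 10.2% lower. The counting interval lay wholly above 1 for 13 genes and wholly below 1 for 4, beside 21.1% and 21.2% of measured genes. These shares are not matched for level: more counts give a narrower interval, and the shares within the CPM range of the 27 were not computed. Such an interval says nothing of how far separate cultures of the same kind would differ.

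Exons of some of these genes overlap those of other genes, and whether reads were shared between them was not tested. TM7SF2 shares exons with VPS51 on the same strand, and 13 of the 27 genes overlap exons of a gene on the opposite strand. Strand use in counting was not given in the sources used here. For 5 of the 13 (ACAT2, MVK, SREBF1, NPC1 and NPC2) the opposite gene had at least 10% of the parental count of the member, and for the other 8 it had less, as for HMGCS1 with 0 counts in both libraries and SREBF2 with 4 in each. Without these 5, in an alternative added after the data were seen, 15 of 22 had a positive log2 ratio and the median was 0.15. Of the 13, 12 had a positive log2 ratio, and without all of them 7 of 14 were positive and the median was 0.00052. By count, the excess of positive ratios over negative ones lay among the genes with an opposite-strand overlap, but the split also follows role. SCAP, INSIG1, INSIG2 and MYLIP, all with ratios below 1, have no such overlap. Of the enzymes without it, SQLE, EBP and SC5D lay below 1 and the others above. Those others include HSD17B7 at 1.45 and MVD at 1.40, the highest ratios of the 27. Overlap and role cannot be told apart here.

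The upstream sequences of 6 genes are shown because they cover both sides of the pattern, with HMGCS1, MVD and HSD17B7 among the higher enzymes, SREBF2 as the regulator with a match to the sterol regulatory element, and SC5D and MYLIP as the lowest ratios. Promoters came from RefSeq on GRCh38.p14, with 24 of the 27 symbols matched. For each gene the promoter nearest to its start in the deposited table was searched from 250 bases before to 50 after the RefSeq start. Of the 200 bases before that start, those outside the exons of the gene in GENCODE 29 are printed from 5′ to 3′ in the direction of the gene. For SC5D all 200 lie within a first exon annotated there, so that 30 bases around each match are given. Capitals mark matches, on either strand, to the core of the sterol regulatory element (TCACNCCAC), the CCAAT box and the E-box CACGTG.
HMGCS1, chr5:43313513-43313612, minus strand: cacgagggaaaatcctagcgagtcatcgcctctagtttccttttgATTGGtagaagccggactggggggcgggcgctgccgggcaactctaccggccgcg
MVD, chr16:88663162-88663291, minus strand: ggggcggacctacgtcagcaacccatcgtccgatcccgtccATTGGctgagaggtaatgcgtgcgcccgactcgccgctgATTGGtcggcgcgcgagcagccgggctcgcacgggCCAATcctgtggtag
HSD17B7, chr1:162790502-162790701, plus strand: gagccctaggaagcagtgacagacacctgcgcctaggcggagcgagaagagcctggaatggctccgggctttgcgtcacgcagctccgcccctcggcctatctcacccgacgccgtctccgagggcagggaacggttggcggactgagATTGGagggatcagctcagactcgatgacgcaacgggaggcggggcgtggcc
SREBF2, chr22:41832905-41833078, plus strand: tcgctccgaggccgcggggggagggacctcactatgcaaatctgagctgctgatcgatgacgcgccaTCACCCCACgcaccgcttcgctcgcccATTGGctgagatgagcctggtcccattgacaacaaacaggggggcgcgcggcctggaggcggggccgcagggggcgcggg
SC5D, chr11:121292628-121292657, plus strand: gcgcgcggcgccCACGTGaccgcggagagc
SC5D, chr11:121292703-121292732, plus strand: cgccggtcgctgATTGGctggccgctccag
MYLIP, chr6:16128886-16129085, plus strand: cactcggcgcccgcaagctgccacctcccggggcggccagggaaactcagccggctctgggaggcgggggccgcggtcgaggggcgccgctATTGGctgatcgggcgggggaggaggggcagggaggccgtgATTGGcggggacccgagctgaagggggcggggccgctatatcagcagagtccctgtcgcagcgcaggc

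CCAAT, the letters of the box bound by NF-Y, a common partner of SREBP, was present on either strand in 17 of the 24 promoters (70.8%), against 34.6% of all 35116 RefSeq promoters of that length and 37.4% of the 10250 promoters of measured genes. Of the 24, 12 held it more than once. MVD had 3 matches, which start 159, 120 and 85 bases before the RefSeq start. HMGCS1 had matches at 155 and 100 bases, the nearer one inside its first exon. The GC box GGGCGG was present in 22 of 24 (91.7%), against 44.95% of all promoters and 70.4% of those of measured genes. The core of the sterol regulatory element was found in 1 of 24 (4.17%, against 1.13% of all promoters and 0.966% of those of measured genes). This was the promoter of SREBF2, with the match at 133 bases before the RefSeq start. Only exact matches to this core were counted, so variants of the element were not searched for. The E-box was found in 4 of 24 (16.7%, against 7.26% and 10.3%). The SC5D promoter held the E-box at 131 bases and a CCAAT box at 56 bases, and the MYLIP promoter held CCAAT boxes at 109 and 68 bases. Both genes with the lowest ratios thus had a CCAAT box, as had HMGCS1, MVD and HSD17B7 among the higher ones. These are matches of letters and were not tested as sites.

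The mevalonate pathway was the group in which every gene had a positive log2 ratio. Its 7 genes went together from 430 to 510 CPM, a ratio of 1.19 (1.15 to 1.22), with a median log2 ratio of 0.21. The counting interval lay above 1 for 6 of the 7, beside 21.1% of all measured genes, a share not matched for level. ACAT2 (ENSG00000120437, chromosome 6, 159760328 to 159779055), the cytosolic thiolase that joins acetyl-CoA units, had 1155 parental and 1453 resistant counts, or 63.7 and 86.7 CPM, a ratio of 1.36 (1.26 to 1.47). Its end overlaps TCP1 on the opposite strand, a chaperonin subunit gene, which stood at a ratio of 1.15 (1.10 to 1.22). HMGCS1 (chromosome 5, 43289395 to 43313512), the cytosolic synthase that makes HMG-CoA, had 747 and 870 counts, or 41.2 and 51.9 CPM, a ratio of 1.26 (1.14 to 1.39).

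The kinases and the later steps to farnesyl diphosphate differed less, except for MVD. MVK, mevalonate kinase, had 300 and 284 counts and a ratio of 1.02 (0.867 to 1.21), so no difference was detectable at this depth. PMVK, the phosphomevalonate kinase, had 702 and 739 counts and a ratio of 1.14 (1.02 to 1.26). MVD (chromosome 16, 88651935 to 88663161), the decarboxylase that yields isopentenyl diphosphate, had 303 and 393 counts, or 16.7 and 23.4 CPM, and the highest ratio of this group, 1.40 (1.20 to 1.63). IDI1, the isomerase of isopentenyl diphosphate, had 1667 and 1695 counts and a ratio of 1.10 (1.03 to 1.18). FDPS, farnesyl diphosphate synthase, had 2912 and 3117 counts, the most of any enzyme in the list, and a ratio of 1.16 (1.10 to 1.22). Processed copies of FDPS and IDI1 held at most 4 counts each in either library.

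The enzymes from squalene to lanosterol went together from 192 to 217 CPM, a ratio of 1.13 (1.08 to 1.18). FDFT1, squalene synthase, had 1569 and 1712 counts and a ratio of 1.18 (1.10 to 1.26). LSS, lanosterol synthase, which closes the rings, had 1204 and 1309 counts and nearly the same ratio, 1.18 (1.09 to 1.27). Between them in the pathway, SQLE, the squalene epoxidase that is held to be a rate-controlling step, had 699 and 610 counts and a ratio of 0.943 (0.845 to 1.05). SQLE was thus the 1 enzyme of the 3 with a ratio below 1, and its interval held 1.

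The last group, from lanosterol to cholesterol, had both the highest and the lowest ratio of the 27 genes, and its sum was 355 parental and 359 resistant CPM, a ratio of 1.01 (0.975 to 1.05). CYP51A1, the lanosterol demethylase of the cytochrome P450 family, had 2047 and 2163 counts and a ratio of 1.14 (1.07 to 1.21), and its copies CYP51A1P1 and CYP51A1P2 had 66 and 92 parental and 55 and 99 resistant counts. TM7SF2, a sterol reductase, had 83 and 100 counts and a ratio of 1.302 (0.964 to 1.76), which is uncertain since summing it with VPS51 gave 0.885 (0.815 to 0.960).

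MSMO1, NSDHL and HSD17B7 act one after another to remove the paired methyl groups from the sterol ring. Their ratios were unequal. MSMO1, the oxidase, had 469 and 538 counts and a ratio of 1.24 (1.09 to 1.41). NSDHL, the dehydrogenase that follows, had 539 and 506 counts and a ratio of 1.01 (0.897 to 1.15). HSD17B7 (ENSG00000132196, chromosome 1, 162790702 to 162812817), the keto reductase, had 331 and 443 counts, or 18.3 and 26.4 CPM, and the highest ratio of all 27 genes, 1.45 (1.252 to 1.67). Its copies HSD17B7P1 and HSD17B7P2 had 0 counts in both libraries. By log2 ratio, 0.51, HSD17B7 was number 927 from the top of the 14686 measured genes.

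SC5D stood apart from the enzymes on either side of it. EBP, the sterol isomerase before it, had 1085 and 964 counts and a ratio of 0.960 (0.880 to 1.05). SC5D (ENSG00000109929, chromosome 11, 121292453 to 121308694, plus strand), the desaturase that makes 7-dehydrocholesterol, had 1008 parental and 390 resistant counts, or 55.6 and 23.3 CPM. DHCR7, the reductase that follows and turns that sterol into cholesterol, had 872 and 907 counts and a ratio of 1.12 (1.02 to 1.24). At a log2 ratio of -1.22 SC5D was number 87 from the bottom of the measured genes. SC5D shares no exon with another gene of the deposited table in the annotation used, on either strand. In the authors' deposited table it was called DOWN with a log2 fold change of -1.27.

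Levels per length place SC5D among the less abundant enzymes of the resistant library. By the deposited FPKM, which divides counts by the length of the gene and by depth, it went from 4.97 to 2.07, and from place 19 to place 25 of the 27 genes. The highest were PMVK at 30.4 and 34.3, CYP51A1 at 21.2 and 24.1 and IDI1 at 17.95 and 19.6, and the lowest was TM7SF2 at 0.385 and 0.498. The length behind these values matters: for 21 of the 27 genes it was within 0.1% of the summed length of all distinct exons of GENCODE 29, in which overlapping exons of different transcripts count more than once, and this sum was up to 3.50-fold the merged exon length. Per kilobase of merged exons the order changed, with FDPS highest at 43.2 CPM per kilobase in the parental library, then CYP51A1 at 31.5 and PMVK at 30.3. Only 7 genes kept their place in the parental library. SC5D went from 9.99 to 4.18 CPM per kilobase, from place 16 to place 24, and TM7SF2 was lowest on both scales.

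**Figure D2:**
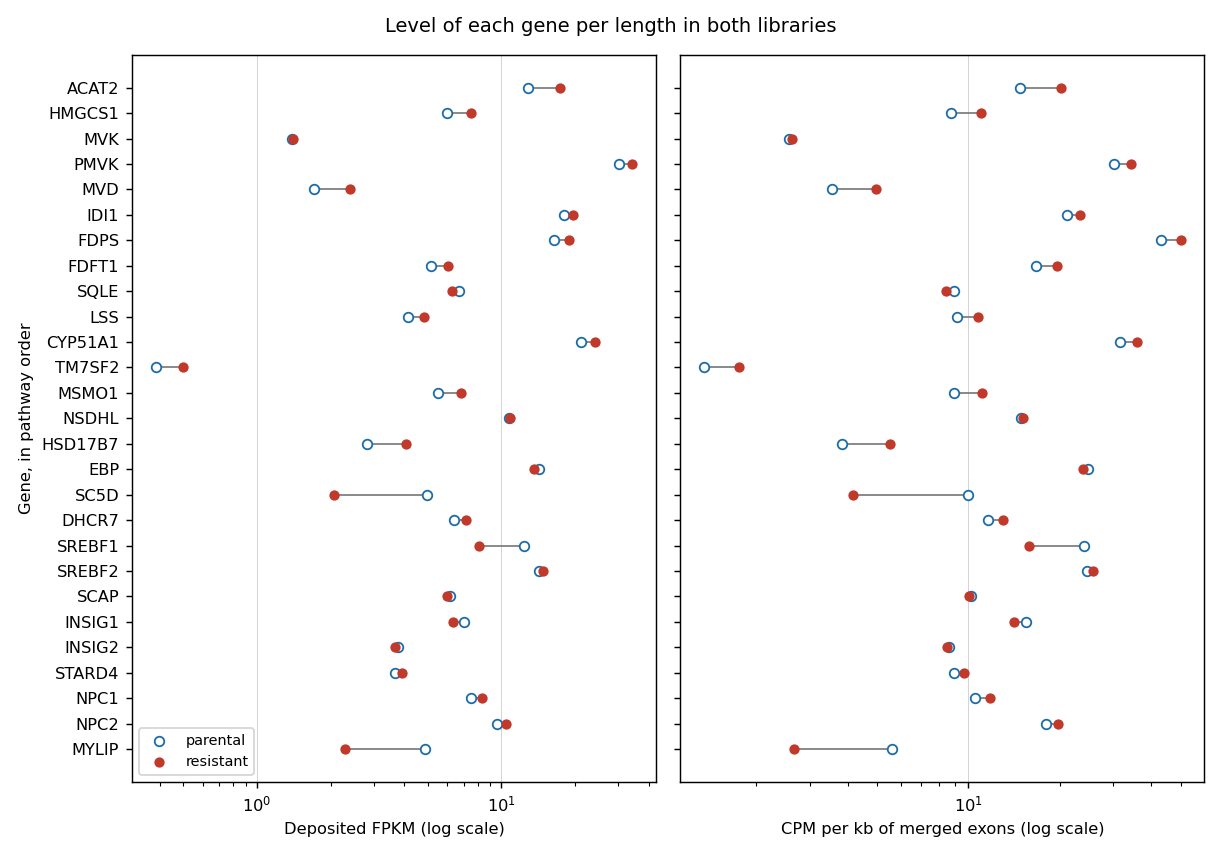
Level of each of the 27 genes in the parental (open circles) and resistant (filled circles) library, as deposited FPKM on the left and as CPM per kilobase of merged exons on the right, both on log axes. The longest lines between the libraries belong to SC5D, from 4.97 to 2.07 FPKM, and MYLIP, from 4.87 to 2.30 FPKM, and the order of genes differs between the scales.

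Among the regulators, SREBF1 was lower and SREBF2 had a ratio near 1. The 5 regulators had a median log2 ratio of -0.02, and 1 of them was positive. SREBF1 (ENSG00000072310, chromosome 17, 17810399 to 17837002), which encodes the SREBP-1 proteins that mainly raise fatty acid synthesis, had 3498 and 2134 counts, or 193 and 127 CPM, a ratio of 0.659 (0.625 to 0.696) and a log2 ratio of -0.60. Its exons overlap those of RAI1 on the opposite strand, which had 2202 and 1865 counts and a ratio of 0.916 (0.860 to 0.974). SREBF2 (chromosome 22, 41833079 to 41907308), which encodes SREBP-2, the main activator of cholesterol synthesis, had 3379 and 3263 counts, or 186 and 195 CPM, and a ratio of 1.04 (0.995 to 1.10). In the parental library SREBF1 and SREBF2 were close on the merged scale, at 24.0 and 24.7 CPM per kilobase, and after selection 15.9 and 25.8.

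The proteins that hold SREBP in place showed small differences or none. SCAP, the sterol-sensing escort, had 1192 and 1085 counts and a ratio of 0.984 (0.905 to 1.07). INSIG1, an anchor of SCAP whose gene is itself a target of SREBP, had 1024 and 864 counts and a ratio of 0.912 (0.832 to 0.999). INSIG2, the other anchor, had 616 and 562 counts and a ratio of 0.986 (0.878 to 1.11). INSIG1 and SQLE, usually counted among SREBP targets, thus had ratios below 1, while HMGCS1, MVD and FDPS, also targets, were above 1.

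Of the genes of sterol transport and uptake control, MYLIP was the 1 with a large difference. MYLIP (ENSG00000007944, chromosome 6, 16129125 to 16148248, plus strand), also known as IDOL, had 307 parental and 135 resistant counts, or 16.9 and 8.05 CPM, a ratio of 0.475 (0.385 to 0.584). It was number 154 from the bottom of the measured genes, and in the authors' deposited table it was called DOWN with a log2 fold change of -1.08. No exon of another gene in the deposited table overlaps it in the annotation used. STARD4, a carrier of cholesterol between membranes, had 925 and 922 counts and a ratio of 1.08 (0.982 to 1.18). NPC1 and NPC2 together let cholesterol out of lysosomes. NPC1, the membrane protein, had 1918 and 1988 counts and a ratio of 1.12 (1.05 to 1.19), and NPC2, the soluble partner, had 899 and 910 counts and a ratio of 1.09 (0.997 to 1.20). The authors' deposited table called SC5D and MYLIP among the 27 and no other, with 271 genes UP and 221 DOWN of 21518 compared.

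The other genes of the pathway were taken in lists chosen by function, whose median log2 ratios lay between -0.04 and 0.24. Of the 5 genes in the list named acetyl-CoA supply, 4 had a positive log2 ratio. ACSS2, the cytosolic acetyl-CoA synthetase and a known SREBP target, had 351 and 491 counts and a ratio of 1.51 (1.32 to 1.74). ACLY, the citrate lyase, stood at 1.12 (1.09 to 1.16). CS, mitochondrial citrate synthase, had 1372 and 3619 counts and a ratio of 2.85 (2.68 to 3.04). Summed with a gene whose exons it shares, CS stood at 2.39 (2.26 to 2.53). Of the 9 measured redox partners and further sterol synthesis genes 3 had a positive log2 ratio. None was at least 25% higher and 2 were at least 20% lower, beside 15.2% and 13.4% of all measured genes. Of the 2 lower ones, POR, the reductase that feeds CYP51A1 and SQLE, stood at 0.763 (0.689 to 0.844). The other, TMEM97, a sterol-regulated partner of NPC1, stood at 0.780 (0.698 to 0.872). CYB5B, a cytochrome b5, stood at 1.23 (1.14 to 1.33).

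The isoprenoid branch, which uses farnesyl diphosphate for prenylation, ubiquinone and dolichol, had 8 of 15 genes positive and a median log2 ratio of 0.03. Of these, 2 were at least 20% lower, beside 13.4% of all measured genes. They were ICMT, the methyltransferase of prenylated proteins, at 0.711 (0.675 to 0.748) and FNTB, a farnesyltransferase subunit, at 0.762 (0.640 to 0.906). The list of SREBP processing and sterol-regulated degradation had 12 of 20 measured genes positive and a median of 0.05. SAR1A, a GTPase of the vesicle coat that carries SCAP to the Golgi, had 949 and 2413 counts and a ratio of 2.75 (2.55 to 2.97), whereas its sister gene SAR1B had 1155 and 1033 counts and a ratio of 0.967 (0.888 to 1.05). The proteases MBTPS1 and MBTPS2, which cut SREBP, stood at 1.03 (0.983 to 1.09) and 0.946 (0.898 to 0.997).

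Over the lists of receptors, sterol movement, esterification and efflux, 5 of 32 measured genes (15.6%) were at least 20% lower and 3 (9.38%) at least 25% higher, shares near the 13.4% lower and below the 15.2% higher of all measured genes. Of 9 lipoprotein receptor genes, 4 were positive and the median was -0.04. CD36, a scavenger receptor, had 44 and 81 counts and a ratio of 1.99 (1.36 to 2.94). SORL1, a sorting receptor of the lipoprotein receptor family, had 364 and 157 counts and a ratio of 0.466 (0.384 to 0.564), and SCARB1, the receptor for high-density lipoprotein, stood at 0.851 (0.817 to 0.886). Of 15 genes of sterol movement, 6 were positive, with a median of -0.03, and 2 were at least 20% lower, the oxysterol-binding protein relative OSBPL2 at 0.757 (0.677 to 0.847) and the sterol transfer protein GRAMD1C at 0.791 (0.557 to 1.12). Of 4 measured genes of esterification and ester hydrolysis, 3 were positive. SOAT1, which esterifies cholesterol for storage, had 5362 and 3574 counts and a ratio of 0.721 (0.690 to 0.752), whereas LIPA, the lysosomal lipase that frees it again, stood at 1.26 (1.18 to 1.35) and LCAT, the plasma esterifying enzyme, at 1.57 (1.07 to 2.30) from 49 and 71 counts. Of the 4 measured genes of LXR and efflux 1 was positive. ABCG1, an efflux transporter and LXR target, had 70 and 19 counts and a ratio of 0.293 (0.167 to 0.493), and ABCA1, the other main one, had 1 and 5 counts, too few for a comparison. The LXR genes NR1H2 and NR1H3 stood at 0.962 (0.862 to 1.07) and 1.02 (0.859 to 1.22). Of 8 genes of oxysterol and bile acid synthesis 5 had a count of 0 in both libraries and 1 was measured, HSD3B7, at 1.06 (0.856 to 1.32).

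The fatty acid targets of SREBP-1, given beside the lower SREBF1, had 4 of 11 positive log2 ratios and a median of -0.04. They went together to a ratio of 0.859 (0.850 to 0.869), a sum that SCD dominates. SCD, the desaturase that makes oleate, had 32493 and 22582 counts and a ratio of 0.751 (0.739 to 0.764). It was the 1 gene of the list past the smaller limit, beside 15.2% higher and 13.4% lower of all measured genes. FASN, fatty acid synthase, stood at 0.899 (0.875 to 0.924) and GPAM, which starts glycerolipid synthesis, at 1.14 (1.02 to 1.27). All lists were chosen with earlier results of these data known, and nothing was tested about the difference between them.

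**Figure D3:**
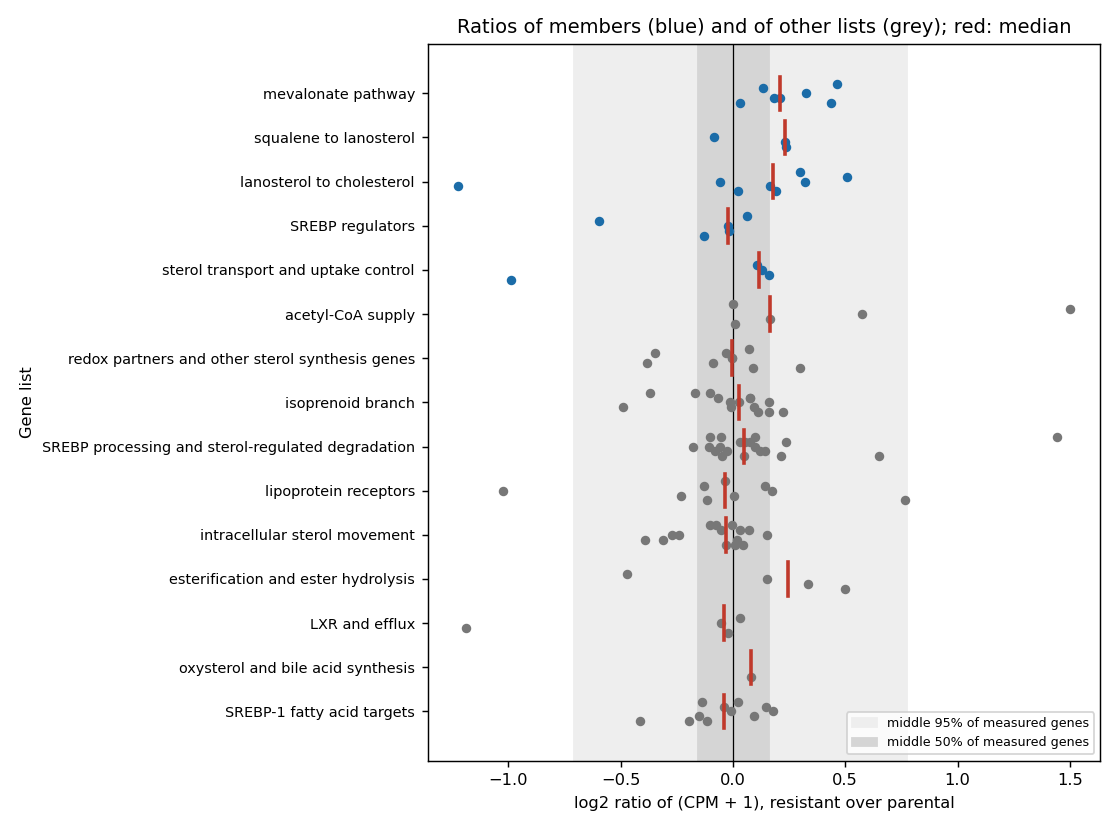
Log2 ratio of resistant over parental CPM, with 1 CPM added, for each measured gene (points) of the 5 groups of the 27 genes (blue) and of 10 other lists (grey), with red lines at the medians and shading for the middle 50% and 95% of the 14686 measured genes. The medians of the enzyme groups lie between 0.18 and 0.23, that of the regulators at -0.02, and single genes such as SC5D, MYLIP, ABCG1 and SORL1 lie to the left of the shading.

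The position of the genes in the genome was looked at after their values were known. Within 1 Mb of SC5D, 7 other measured entries lie on chromosome 11, and the 1 with a log2 ratio of -1 or less was SORL1, 144 kb away, named above at a ratio of 0.466. The other 6 had log2 ratios between -0.17 and 0.40. TBCEL, 202 kb away on the other side, had 820 and 769 counts and a ratio of 1.01 (0.918 to 1.12). Of the 27 genes, 3 had a measured gene this much lower within 1 Mb and 5 had one with a log2 ratio of 1 or more.

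Around MYLIP no gene within 1 Mb reached the larger limit in either direction. Its 6 measured neighbours had log2 ratios between -0.65 and 0.22, and JARID2 and ATXN1, those with the most counts, stood at 0.996 (0.908 to 1.09) and 0.999 (0.916 to 1.09). HSD17B7, the highest of the 27, starts 3.3 kb past the end of DDR2 on the same strand. DDR2, a collagen receptor kinase gene, had 57 and 215 counts and a ratio of 4.08 (3.03 to 5.56). The other 11 measured entries near HSD17B7 had log2 ratios between -0.63 and 0.89. Whether these neighbouring values are related was not tested.

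**Figure D4:**
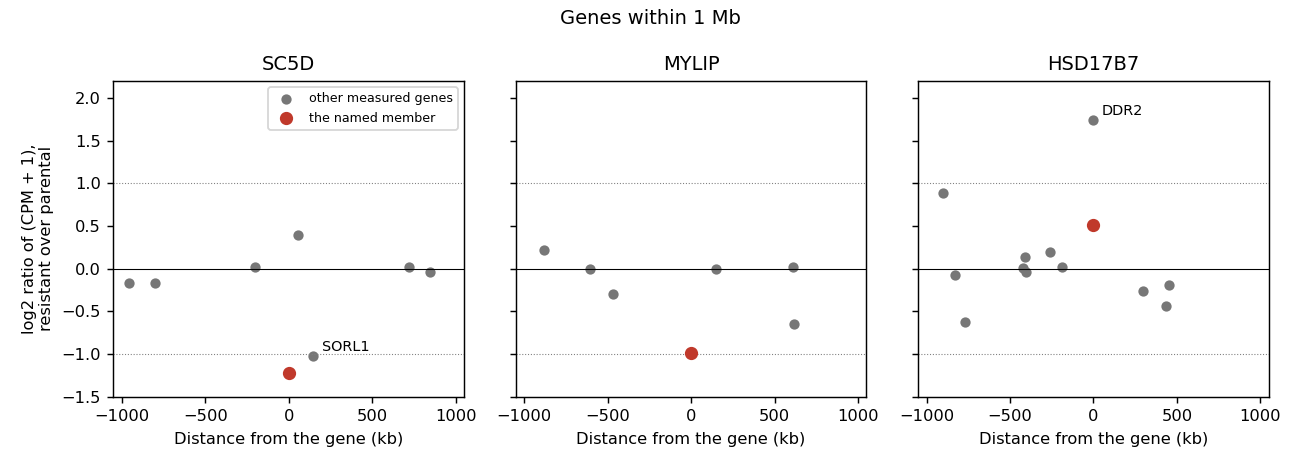
Log2 ratio of resistant over parental CPM, with 1 CPM added, against distance in kb for measured genes (grey) within 1 Mb of SC5D, MYLIP and HSD17B7 (red), with dotted lines at -1 and 1. SORL1 lies near SC5D at -1.02, DDR2 next to HSD17B7 at 1.74, and no neighbour of MYLIP passes a dotted line.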

How the data were processed

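RNA of 1 parental and 1 resistant culture was sequenced, and the groups follow the treatment label. The deposited values were whole-number counts per gene, per the file headers. Per the submitters' processing notes, bcl2fastq 2.19, HISAT2 2.0.4 and StringTie 1.3.0 were used on GRCh38; annotation release and strand settings were not given in the sources used here. FPKM values, so named per the file headers, matched by their values the count over a gene length and the total count. The authors' deposited table of log2 fold changes, whose log2 values equal the log2 ratio of the FPKM, also holds a p-value and q-value per gene from a test that no source used here names; these were not used.

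Counts were scaled to CPM with TMM factors from edgeR 4.0.16 (1.00 parental, 0.997 resistant), without a model. The log2 ratio adds 1 CPM. Ratios of CPM carry the exact Clopper-Pearson interval of both counts (scipy 1.17.1). Copies made by PCR are not independent molecules. Genes at 1 CPM or more in either library were measured. Exons came from GENCODE 29. The calculation was tested on simulated counts with set ratios and counting error only, so that test says nothing of differences between cultures. The 27 genes, the lists (159 symbols, 158 matched), the limits of size and the alternatives (other scalings, pseudocounts, filters, FPKM, overlapping genes) were chosen with earlier results of these data known. All 27 genes are named, with up to 4 genes of each other list, those with the largest absolute log2 ratio. Other genes were added after their values were seen: NR1H2, NR1H3, ABCA1, SAR1B, MBTPS1, MBTPS2 and the genes within 1 Mb. So were the marker genes LUM, COL3A1, COL1A2, PDGFRA, CDH5, PECAM1, VWF and KDR.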

Additional observations from a re-analysis of the deposited data

How the results depend on the processing

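Scaling by total count, DESeq2 1.42.0 size factors, upper quartiles or totals without mitochondrial genes, a pseudocount of 0.1 or 5 CPM and the deposited FPKM left the sign of the log2 ratio of all 27 genes as it was, and summing over shared exons turned that of TM7SF2 to -0.17. The count of genes with a log2 ratio of -1 or less was 1 as reported. It was 2 with DESeq2 factors, 2 with totals without mitochondrial genes and 2 with a pseudocount of 0.1, where MYLIP joined SC5D, and 0 with the deposited FPKM, where 1 FPKM added to low values brought SC5D to -0.96. At a 1.5-fold limit it was 3. The count of genes at least 25% higher, 5 as reported, was 4 with DESeq2 factors and with totals without mitochondrial genes, and 4 with a filter at 10 CPM and with TM7SF2 summed over shared exons or left out. Without the 13 genes that overlap exons of an opposite-strand gene, an alternative added after the data were seen, 3 of the 14 genes left were at least 25% higher and 7 had a positive log2 ratio. The median of the 27 lay between 0.11 and 0.14 under the scaling, pseudocount and filter alternatives and the FPKM. No paired analysis was possible because each group has 1 library. With 1 library per group, depth sets only the counting error: TM7SF2, with 83 and 100 counts, has the widest interval of the 27 genes.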
